A study of Rattus norvegicus with 10 samples.

Results

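The genes of the proteasome were followed in the livers of 10 male Wistar rats, 5 given vehicle only (control) and 5 given diethylnitrosamine followed by thioacetamide (DEN/TAA). They were taken as every gene whose rat symbol begins with Psma, Psmb, Psmc, Psmd, Psme, Psmf or Psmg, leaving out the immune subunits Psmb8, Psmb9 and Psmb10. The rule found 43 genes, measured by 51 probes, of the 13832 genes and 41012 probes on the array. Of these genes, 15 encode the 20S core and 16 the 19S regulator. The others are assembly chaperones, activators, an inhibitor, and 2 genes that share only the prefix, Psmc3ip, which acts in meiotic recombination, and Psme3ip1, which encodes a partner of an activator.

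Diethylnitrosamine causes liver tumours by alkylating DNA, and repeated thioacetamide injures hepatocytes and leads to fibrosis. Diethylnitrosamine was given to the treated rats by a single intraperitoneal injection (200 mg/kg) when they were 6 weeks old. Thioacetamide, also at 200 mg/kg, began 2 weeks afterwards and was injected 2 times a week, with 3 weeks of injections followed by 1 week of rest. The labels give 23 weeks both as the length of treatment and as the age of each rat, in both groups, so the duration is not settled here. Each rat contributed 1 single-colour (Cy3) array from 150 ng of whole-liver RNA.

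The proteasome is the cell's main machine for breaking down proteins tagged with ubiquitin. Its 20S core is a barrel in which outer alpha rings control entry and inner beta rings carry the cutting sites, and the 19S regulator caps the barrel, recognises the tag, removes it and unfolds the substrate with a ring of ATPases. Transcription factors of the Nrf family, which bind antioxidant response elements, can raise the transcription of subunit genes together when proteolysis is limiting. In the liver the proteasome also produces peptides for presentation, a task for which inflammatory signals bring in the immune subunits.

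Signals are given as log2 intensity relative to the 75th percentile of probes detected on all arrays, so that 0 is that percentile, and differences are DEN/TAA minus control with the standard error (SE) of limma's fit. A gene was called where limma's p-value, adjusted by the Benjamini-Hochberg method over the 6849 genes tested, was under 0.05. Of the 43 genes 42 passed the filter on dim probes, and 36 of these were detected well above background on each of the 10 arrays. The remaining gene, Psma8, a testis form of an alpha subunit, was above background on 0 arrays. Psmd11, Psmg1, Psmg3, Psmb11 and 4 copies named Psmb6l1, Psmb3l1, Psmb3l2 and Psmg4l1 had no named probe and are not analysed here.

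Arrays of control livers were the dimmer ones, with 16.5% to 32.9% of spots well above background against 36.1% to 46.6%, and spike-in probes, for RNA added before labelling, at 12.42 to 13.46 against 13.6 to 14.07 on the log2 scale. The median over all genes tested was 0.33 higher in DEN/TAA livers, but this shift depended on the filter. It was 0.10 for genes above background on all 10 arrays, 0.11 with undetected arrays raised to the detection floor and -0.50 without a filter. Differences below are set beside the 0.33 of the main setting, which is not a fixed baseline. Hepatocyte markers were bright in every liver, but 7 of 8 were lower in DEN/TAA, and their summed signal was 367 to 582 times the array's 75th percentile in control and 189 to 236 times in DEN/TAA. Macrophage markers (7 of 9 higher, 1 lower) summed to 1.89 to 2.53 against 7.71 to 10.2, stellate cell and myofibroblast markers (8 of 8 tested higher) to 0.9 to 1.27 against 4.64 to 6.67, and biliary and progenitor markers (5 of 5 tested higher) to 0.176 to 0.256 against 1.28 to 1.82. Of 6, 7 and 7 listed endothelial, T and NK cell and proliferation markers, 2, 4 and 3 were tested. The others had no named probe or did not pass the filter. Of the genes tested, 2, 3 and 3 were higher, with sums of 0.114 to 0.203 against 0.302 to 0.452, 0.0497 to 0.135 against 0.179 to 0.237, and 0.121 to 0.213 against 0.339 to 0.514. Trem2, Gpnmb, Lum, Krt19, Spp1, Pecam1, Cdh5, Ccnb1, Ccna2, Mcm2 and all T and NK cell markers but Cd3d were not above background on any control array. Such genes could pass the filter only through the DEN/TAA arrays, so for them the filter favoured a higher value. The part of these cell types and of array brightness in the proteasome values was not tested, and in bulk tissue fewer cells of a type and less RNA per cell cannot be told apart.

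Most proteasome genes had somewhat more signal in DEN/TAA than in control livers. Of the 42 tested, 21 rose, 1 fell (Psmd9) and 20 did not pass the threshold. That is 50% of them rising against 39.2% of all genes tested, and 2.38% falling against 16.3%. The 21 include Psmc3ip and Psme3ip1, which share only the prefix. The filter let Psmc3ip in through the DEN/TAA arrays alone, as no control array detected it. Its call therefore cannot show a rise, and its difference was -0.26 with the control arrays at the floor and -0.80 with normexp. The median difference of the 42 genes was 0.48 on the log2 scale against 0.33 over all genes, and 25 of the 42 lay above the latter. For 15 of them (35.7%) every DEN/TAA rat lay on one side of every control rat, against 39.5% of all genes tested. The share rising was thus somewhat above that of all genes tested, an order that turned over under 1 other scaling below. The share not overlapping was somewhat below that of all genes tested. The gap in shares rising depended on the filter. With the filter on all 10 arrays, 44.4% of 36 members rose against 32.3% of 3568 genes. Their medians were 0.35 and 0.10, and 28 of the 36 members lay above the latter. Without a filter the shares rising were 44.2% and 18.7%. Falling genes were few.

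A shift was seen in each treated rat, for the members and over all genes tested. In DEN/TAA replicates 1 to 5, 37, 38, 35, 38 and 33 of the 42 genes lay above their own control mean, against 14 to 31 in the control rats. The median shift of the 42 genes was 0.43, 0.50, 0.43, 0.48 and 0.37 in these rats and -0.05 to 0.07 in the control rats. Over all genes tested it was 0.34, 0.30, 0.34, 0.37 and 0.31 in the same DEN/TAA rats and -0.01 to 0.05 in control. Within the 3 slides, each of which held both groups, the median difference was 0.52, 0.33 and 0.29, against 0.33, 0.33 and 0.31 for all genes. The members' median thus stood clearly above that of all genes on slide 1 only. With slide as a block, 21 rose and 1 fell, with Psmb1 and Psmd7 gaining a call and Psmd13 and Psmg4 losing theirs. The members' median SD between rats was 0.28 in control and 0.19 in DEN/TAA, against 0.39 and 0.26 over all genes tested. This comparison was not matched for brightness. Of the members 36 of 42 were above background on all arrays, against 3557 of the 6849 genes tested.

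**Figure D1:**
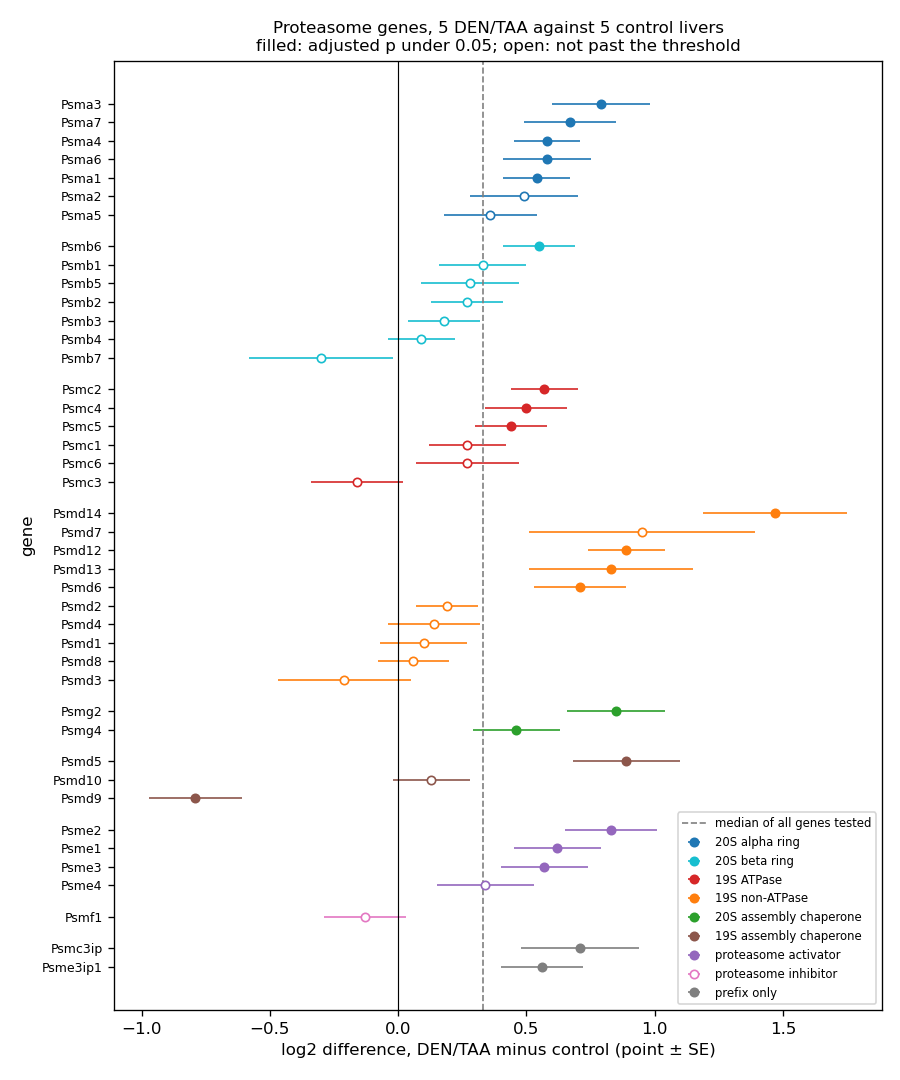
Difference between 5 DEN/TAA and 5 control livers for each of the 42 proteasome genes tested, on the log2 scale, as a point with its SE, coloured by subcomplex and filled where the adjusted p was under 0.05. Values are those of the main setting. The alpha ring genes lie to the right of the dashed median of all genes (0.33) and most beta ring genes to its left. Psmd14 (1.47) and Psmd9 (-0.79) stand at the ends.

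The counts depended on how arrays were put on one scale. Members rising numbered 12 after normexp background correction (28.6% of them, against 12.8% of all genes), 14 after quantile normalisation (33.3% against 28.3%), 37 with spike-in scaling (88.1% against 64.8%) and 19 in the authors' table (45.2% against 29.7%). With the percentile taken over all probes 3 rose, and their share, 7.14%, was below the 23.6% of all genes. The median of all genes was -0.28 with normexp, 0.17 after quantile normalisation, 0.99 with spike-in scaling, 0.08 for the authors' values and 0.02 when all probes set the percentile, while the median of the members was 0.24, 0.37, 1.14, 0.27 and 0.17 in that order. The members' median was above that of all genes under each of the 6 scalings, main setting included, and 25 to 36 of the 42 genes lay above it. The main setting, spike-in scaling and the percentile over all probes differ only by 1 value per array. Their order and their count of 25 therefore could not differ. The count was 36 with normexp, 32 after quantile normalisation and 32 in the authors' table. Among all genes called, those rising made up 70.6% in the main setting, and 31.1%, 58.8%, 91.8%, 60.8% and 50.2% in these 5 alternatives in the same order. Psmd14, Psmd12 and Psme2 rose under all 6 scalings, and Psmd9 fell under 5 of them, with -0.13 (adjusted p = 0.648, limma) under spike-in scaling. Psmb7, Psmd3 and Psmf1 were called under none of the 6.

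**Figure D2:**
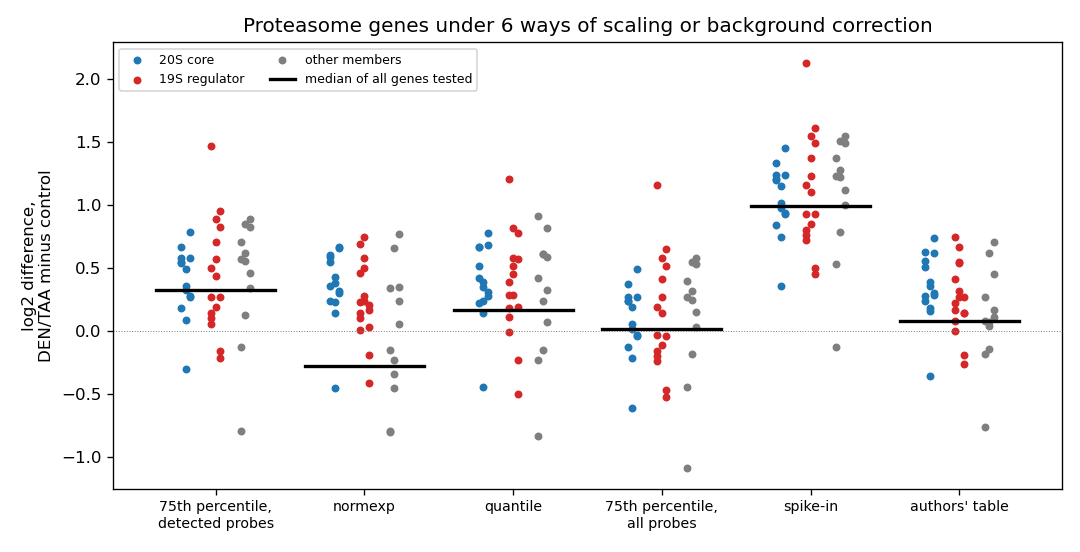
Log2 difference of each proteasome gene under 6 ways of scaling or background correction, with 20S core, 19S regulator and other members as points and the median of all genes tested as a bar. The bar lies between -0.28 with normexp and 0.99 with spike-in scaling, and with normexp most points lie above it (36 of 42).

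The 20S core and the 19S regulator moved by similar amounts. In the core 6 of 14 genes rose (42.9%, against 39.2% of all genes) and 0 fell, with a median difference of 0.43 (0.53, 0.42 and 0.33 within the 3 slides). In the regulator 7 of 16 rose (43.8%) and 0 fell, with a median of 0.36 (0.47, 0.24 and 0.25). The core's median minus the regulator's, taken in each rat relative to control means, was -0.14, 0.02, -0.11, -0.14 and 0.14 in control replicates 1 to 5 and 0.16, 0.07, -0.03, 0.04 and 0.02 in DEN/TAA replicates 1 to 5. These ranges overlapped. In each subcomplex 8 genes lay above the 0.33 of all genes in the main setting. These counts for core and regulator were 13 and 15 with normexp, 12 and 12 after quantile normalisation and 13 and 13 in the authors' table.

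Within the core, the alpha ring stood higher than the beta ring. Of 7 alpha genes tested 5 rose, with a median of 0.58 (range 0.36 to 0.79), and all 7 lay above the median of all genes. Of 7 beta genes 1 rose, with a median of 0.27 (range -0.30 to 0.55), and 1 lay above it in the main setting. The number of beta genes above the median of all genes depended on the setting. It was 6 with normexp, 5 after quantile normalisation, 6 in the authors' table and 5 with the filter on all 10 arrays. With spike-in scaling and with the percentile over all probes it was again 1. The alpha median minus the beta median in each rat was -0.17, 0.03, -0.02, 0.02 and -0.06 in control and 0.35, 0.32, 0.35, 0.20 and 0.26 in DEN/TAA replicates 1 to 5. Each DEN/TAA rat was thus above each control rat. This contrast of rings was chosen after the values had been seen and is given without a test. The difference between the ring medians was 0.31 in the main setting and 0.31 to 0.42 under the 6 scalings, although the beta median itself was -0.04 with the percentile over all probes. A single factor applied to a whole array cannot change it.

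**Figure D3:**
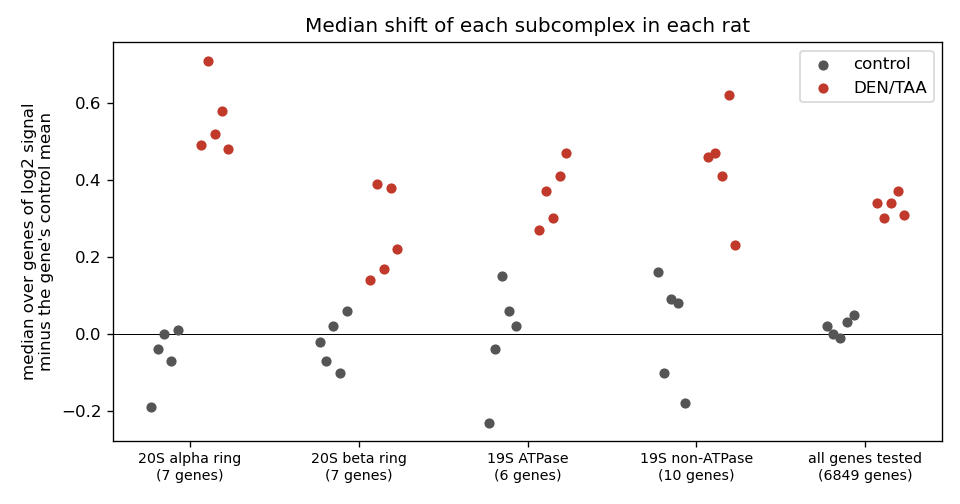
Median over the genes of each subcomplex of the log2 signal minus the gene's control mean, one point per rat, 5 control and 5 DEN/TAA. Alpha ring medians of DEN/TAA rats are 0.48 to 0.71 and beta ring medians 0.14 to 0.39, while all genes tested are at 0.30 to 0.37.

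Alpha subunits form the outer gate of the barrel. Psma4 had signals of 1.38, 1.60, 1.52, 1.30 and 1.46 in control replicates 1 to 5 and 1.94, 2.16, 1.97, 2.01 and 2.06 in DEN/TAA replicates 1 to 5. The groups did not overlap, and the difference was 0.58 (SE 0.13, n = 5 per group, 1.49-fold, adjusted p = 0.00243, limma). Psma1 likewise did not overlap, at -0.10 to 0.30 in control and 0.55 to 0.69 in DEN/TAA (0.54, SE 0.13, adjusted p = 0.00428). Psma3 had the largest difference of the ring, 0.79 (SE 0.19, adjusted p = 0.00433), although its highest control rat (0.20) lay above its lowest DEN/TAA rat (0.12). Psma7 (0.67, adjusted p = 0.00802) and Psma6 (0.58, adjusted p = 0.0132) rose with overlapping groups, and the second probe of Psma6 gave 0.72. Psma2, at 0.49 (adjusted p = 0.0594), and Psma5, at 0.36 (adjusted p = 0.11), did not pass. Without control replicate 3 or 4 Psma2 passed (adjusted p = 0.0378 and 0.028), and without control replicate 5 Psma5 passed (0.0292).

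Of the beta subunits, Psmb5, Psmb6 and Psmb7 carry the chymotrypsin-like, caspase-like and trypsin-like sites, and Psmb1 to Psmb4 have no cutting site. Psmb6 had signals of -1.33, -1.43, -1.54, -1.15 and -1.35 in control and -0.77, -0.73, -1.06, -0.92 and -0.58 in DEN/TAA replicates 1 to 5. It rose by 0.55 (SE 0.14, 1.46-fold, adjusted p = 0.00708, limma) without overlap, but was not called with normexp (0.36, adjusted p = 0.107) or with the percentile over all probes (0.24, adjusted p = 0.283). Psmb7 had -0.42, -1.24, -1.20, -1.51 and -1.73 in control and -1.55, -1.66, -1.05, -1.11 and -2.23 in DEN/TAA, a difference of -0.30 (SE 0.28, adjusted p = 0.382). Its groups overlapped widely, and the sign was negative under 5 of the 6 scalings and positive under spike-in scaling (0.36). Of the 3 catalytic subunits, Psmb6 alone was called. Psmb5, at 0.28 (SE 0.19, adjusted p = 0.232), had 1 low DEN/TAA array, replicate 5 at 0.79 against 1.46 to 1.66 in the others, and without it the difference was 0.43 (adjusted p = 0.0306). The non-catalytic Psmb1 (0.33), Psmb2 (0.27), Psmb3 (0.18) and Psmb4 (0.09) did not pass, with adjusted p from 0.117 to 0.556. Psmb1 passed without control replicate 4 (0.45, adjusted p = 0.0363) and with slide as a block (0.41, adjusted p = 0.041).

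The immune subunits Psmb8, Psmb9 and Psmb10 can replace Psmb5, Psmb6 and Psmb7 in the barrel, in that order. Psmb10 rose by 0.82 (SE 0.16, 1.76-fold, adjusted p = 0.00143, limma), from -0.58 to 0.14 in control to 0.33 to 0.77 in DEN/TAA, and rose under all 6 scalings. Psmb9 (0.17, adjusted p = 0.571) and Psmb8 (0.10, adjusted p = 0.749) did not pass. The balance of each immune subunit with the standard subunit it replaces was compared within arrays, as the shift of the one minus the shift of the other. For Psmb10 minus Psmb7 this was -0.42, -0.04, 0.12, -0.05 and 0.39 in control and 1.16, 1.21, 0.84, 0.81 and 1.58 in DEN/TAA replicates 1 to 5, with a mean of 1.12 ± 0.31 in DEN/TAA (SD, n = 5; control SD 0.29). The groups did not overlap (two-sided exact permutation test over 252 assignments, p = 0.00794, the smallest it can give, and 0.0238 after adjustment over 3 pairs). For Psmb9 minus Psmb6 the mean was -0.37 ± 0.33 (exact permutation test, adjusted p = 0.31) and for Psmb8 minus Psmb5 -0.18 ± 0.40 (exact permutation test, adjusted p = 0.532), with overlap in both. The genes' values were known when these pairs were set up, so the p-values describe the separation and are not independent support for it. The assignments were not restricted to slides. Within the 3 slides Psmb10 differed by 0.64, 0.83 and 0.80, and Psmb7 by -0.77, 0.12 and -0.61.

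The 6 ATPases of the 19S base form the ring that unfolds substrates. Psmc2 had signals of 0.32, 0.45, 0.69, 0.61 and 0.65 in control and 1.11, 1.20, 0.97, 1.15 and 1.16 in DEN/TAA, without overlap (0.57, SE 0.13, 1.49-fold, adjusted p = 0.00334, limma). Psmc4 rose by 0.50 (SE 0.16, adjusted p = 0.0176), with 0.60 at its second probe, and Psmc5 by 0.44 (SE 0.14, adjusted p = 0.0167). Without the 2 dimmest control arrays Psmc5 was not called (0.35, adjusted p = 0.0589). Psmc1 and Psmc6, both at 0.27, and Psmc3 at -0.16 did not pass, with adjusted p from 0.14 to 0.453. Psmc3 was negative under 5 scalings, being called lower with the percentile over all probes (-0.47, adjusted p = 0.0479), and positive under spike-in scaling (0.50). These partners in one ring, 3 rising and 3 not called, spanned differences from -0.16 to 0.57. Of all genes tested 39.2% rose.

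The largest differences lay among the non-ATPase subunits of the 19S regulator. Of these 4 of 10 rose, a share close to the 39.2% of all genes tested. Psmd14 is the deubiquitinase that takes the ubiquitin chain off the substrate. Its signals were -3.67, -4.28, -3.76, -2.97 and -4.70 in control and -2.31, -2.45, -2.67, -2.44 and -2.15 in DEN/TAA. Each DEN/TAA rat was above each control rat, with an SD of 0.19 in DEN/TAA and 0.65 in control. The control SD takes in replicate 5, whose -4.70 lay below that array's detection floor of -3.75. Psmd14 rose by 1.47 (SE 0.28, 2.77-fold, adjusted p = 9.48e-04, limma), and by 1.59, 1.20 and 1.69 within the 3 slides. Only 4 of the 5 control arrays had it above background, and with the other array raised to its detection floor the difference was 1.28 (adjusted p = 6.29e-04). Over the 6 scalings it ranged from 0.69 to 2.13, and 12.4% of all genes had a larger difference in the main setting.

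Psmd12, a scaffold subunit of the lid that holds Psmd14, was the second subunit to rise under every scaling. It had -1.03, -1.02, -1.12, -0.79 and -1.13 in control and -0.25, -0.08, -0.46, 0.03 and 0.12 in DEN/TAA. The groups did not overlap, and the difference was 0.89 (SE 0.15, 1.85-fold, adjusted p = 4.58e-04, limma), with 0.86, 0.90 and 1.07 within the slides. The lid subunit Psmd6 rose by 0.71 (SE 0.18, adjusted p = 0.00568), also without overlap, but its difference within slide 3 was 0.21 and it was not called with normexp (0.28, adjusted p = 0.325), quantile normalisation (0.45, adjusted p = 0.0583) or the percentile over all probes (0.41, adjusted p = 0.0599). Psmd13, another lid subunit, passed narrowly at 0.83 (SE 0.32, adjusted p = 0.0475) and lost its call without any 1 of 9 rats, control replicate 4 being the exception. The call was also lost with slide as a block (0.85, adjusted p = 0.0583), without the 2 dimmest control arrays (0.58, adjusted p = 0.159) and under 4 scalings, with 0.03 under normexp and 0.27 in the authors' table.

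Psmd7, the partner with which Psmd14 forms its active unit, had a difference of 0.95 (SE 0.44, adjusted p = 0.0857) and did not pass. Its signals spread widely, with means of -1.86 ± 0.97 over control rats and -0.90 ± 0.60 over DEN/TAA rats (SD, n = 5), and replicate 5 was lowest in both groups (-3.32 and -1.91). Its other probes gave 0.34 and 1.05. It passed without control replicate 3 (1.17, adjusted p = 0.0474), without DEN/TAA replicate 5 (1.21, adjusted p = 0.0338) and with slide as a block (0.65, adjusted p = 0.0279). The base scaffolds Psmd2 (0.19, with -0.06 at its second probe) and Psmd1 (0.10, with 0.29 at its second probe), the ubiquitin receptor Psmd4 (0.14) and the lid subunits Psmd8 (0.06) and Psmd3 (-0.21) did not pass, with adjusted p from 0.2 to 0.734. Members of the lid were therefore found both among the largest differences and near 0.

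**Figure D4:**
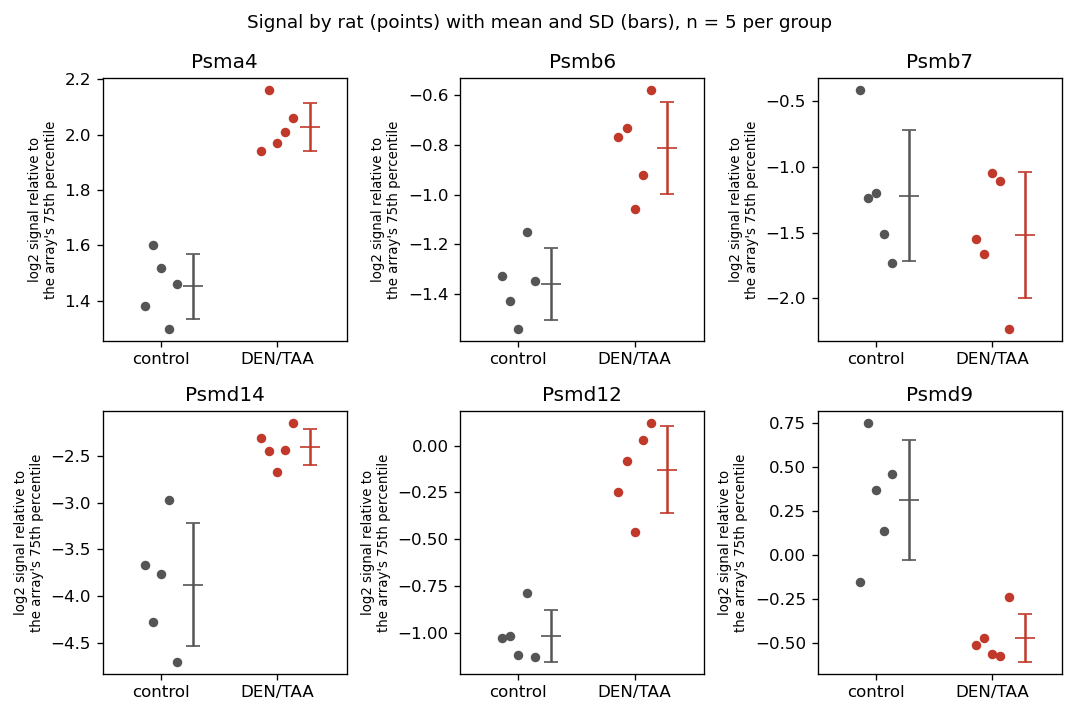
Log2 signal relative to the array's 75th percentile in each rat for Psma4, Psmb6, Psmb7, Psmd14, Psmd12 and Psmd9, with the mean and SD of 5 rats per group beside the points, on separate vertical axes. Groups are apart for 5 of the genes, with Psmd9 lower in DEN/TAA, and overlap for Psmb7.

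The chaperones of the regulator diverged. Psmd5, Psmd9 and Psmd10 hold pairs of ATPases during assembly and are absent from the finished particle. Psmd9 had signals of -0.15, 0.75, 0.37, 0.14 and 0.46 in control and -0.51, -0.47, -0.56, -0.57 and -0.24 in DEN/TAA. Every DEN/TAA rat lay below every control rat, and the difference was -0.79 (SE 0.18, a control level 1.73 times that in DEN/TAA, adjusted p = 0.00292, limma), with -0.79, -0.94 and -0.54 within the slides. Psmd5 moved the other way, from -3.75 to -2.58 in control to -2.54 to -1.97 in DEN/TAA (0.89, SE 0.21, 1.85-fold, adjusted p = 0.0041). Of 5 control arrays 4 had it above background, and the difference was 0.89 with the floor as well. It was smaller and not called with normexp (0.35, adjusted p = 0.173) and when all probes set the percentile (0.58, adjusted p = 0.0614), and was 0.45 (adjusted p = 0.0343) in the authors' table. Psmd10, also known as gankyrin and described as overexpressed in liver cancer, had -2.70 to -2.44 in control and -2.72 to -2.24 in DEN/TAA, a difference of 0.13 (SE 0.15, adjusted p = 0.48).

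Psmg2 and Psmg4 encode chaperones that help to build the alpha ring. Psmg4 had -1.90, -1.20, -1.21, -1.64 and -1.21 in control and -1.03, -0.94, -0.87, -0.96 and -1.05 in DEN/TAA. The groups did not overlap, and the difference was 0.46 (SE 0.17, adjusted p = 0.0362, limma). That call was lost without control replicate 1 or 4, without DEN/TAA replicate 1, 2, 3 or 4, and without the 2 dimmest control arrays, with adjusted p from 0.0595 to 0.0789. It was lost as well with slide as a block (0.43, adjusted p = 0.0554) and under 4 of the 6 scalings, with 0.15 to 0.33. Psmg2 rose by 0.85 (SE 0.19, adjusted p = 0.00247), but was above background on 3 of 5 control arrays, gave 0.51 (adjusted p = 0.0838) with the others at the floor, and was -0.45 (adjusted p = 0.159) with normexp and 0.07 (adjusted p = 0.574) in the authors' table. Pomp, the maturation factor on which the beta ring closes, did not pass (0.15, SE 0.13, adjusted p = 0.343).

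The activators open the barrel without the 19S cap. Psme1 and Psme2 together form the activator PA28 that interferon induces, and Psme2 had 0.22, -0.38, -0.31, -0.40 and 0.03 in control and 0.94, 0.84, 0.65, 0.57 and 0.34 in DEN/TAA. The groups did not overlap, and the difference was 0.83 (SE 0.18, 1.78-fold, adjusted p = 0.00204, limma), with 0.97, 0.92 and 0.52 within the slides. Psme1 rose by 0.62 (SE 0.17, adjusted p = 0.00863), with overlapping groups. Psme3, the nuclear form, rose by 0.57 (SE 0.17, adjusted p = 0.0141), but was called under only 2 of the 6 scalings (0.27 in the authors' table, adjusted p = 0.0579). Psme4, which encodes PA200, did not pass (0.34, SE 0.19, adjusted p = 0.162). The inhibitor Psmf1 did not pass either (-0.13, SE 0.16, adjusted p = 0.5). In the main setting 3 of 4 activators and 0 of 1 inhibitor thus rose, against 39.2% of all genes tested. Of the genes that share only the prefix, Psme3ip1 rose by 0.56 (adjusted p = 0.0123), though with normexp it was -0.34. In control Psmc3ip was above background on 0 of 5 arrays, and since its floor there exceeded its DEN/TAA mean no fold is given. Its fitted difference was 0.71 (adjusted p = 0.0221), which was -0.26 with the control arrays at the floor and -0.80 with normexp.

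Beyond the subunits, 76 of 105 listed genes of the ubiquitin pathway were tested, of which 31 rose (40.8%, against 39.2% of all genes) and 3 fell (3.95% against 16.3%), with a median difference of 0.39 against 0.33. The rise was largest for Mdm2, the ligase that controls p53, at -3.87 to -3.01 in control and -1.88 to -1.17 in DEN/TAA (1.76, SE 0.20, 3.39-fold, adjusted p = 3.14e-05, limma). Usp14, a deubiquitinase that sits on the 19S regulator, rose by 1.09 (SE 0.15, adjusted p = 9.91e-05) and the deubiquitinase Uchl3 by 1.06 (SE 0.13, adjusted p = 5.32e-05), both without overlap and, like Mdm2, under all 6 scalings. The ligase Syvn1 and its partner Sel1l, which send misfolded proteins of the endoplasmic reticulum to the proteasome, fell by 0.65 (adjusted p = 0.0179) and 1.07 (adjusted p = 0.00146), and the autophagy receptor Optn fell by 0.87 (adjusted p = 0.00216). Under spike-in scaling these were not called, and Syvn1 was at 0.01. Nfe2l2, which encodes Nrf2, was at 0.48 (SE 0.36, adjusted p = 0.284) and passed with slide as a block (0.67, adjusted p = 0.0496), while Nfe2l1 is not analysed here. The 19S ubiquitin receptor Adrm1 (-0.67, adjusted p = 0.102) passed as lower with slide as a block (-0.82, adjusted p = 0.0355), and Sqstm1 (0.28, adjusted p = 0.32) passed as higher without control replicate 1 (0.47, adjusted p = 0.0385). The ubiquitin gene Ubb did not pass (-0.26, adjusted p = 0.167), though it was called higher in the authors' table (0.50) and after quantile normalisation (0.46), but lower when all probes set the percentile (-0.57).

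Promoters were read because subunit genes are known to share control by the antioxidant response element. RefSeq promoters (rat assembly GRCr8, 250 bases before the start) were found for 39 of the 43 genes, not for Psma7, Psmd6, Psmd12 or Psmd14. These missing genes all rose, so the counts for rising genes below leave them out. They were searched on both strands for the core of that element, TGACNNNGC, and for the CCAAT box. The element's core was present in 7 of 39 genes (17.9%), against 10.1% of 33469 promoter entries, and in 4 of 14 core genes against 1 of 13 regulator genes. It was present in 2 of 17 genes that rose and in 4 of 20 that were not called. CCAAT was present in 20 of 39 (51.3%) against 34% of entries, in 7 of 17 that rose and in 12 of 20 not called. Members were counted with 1 promoter per gene, while the 33469 entries were all those listed. The entries were not limited to genes tested or matched for base composition, so these shares are not like for like. The match in the 4 core genes and the 2 matches in Psmd9, the gene that fell, are shown in stretches of 60 bases on the gene's strand, with the match in capitals. In Psma3 and in the first stretch of Psmd9 the match is on the opposite strand.
Psma3, chr6:95219689-95219748 (+): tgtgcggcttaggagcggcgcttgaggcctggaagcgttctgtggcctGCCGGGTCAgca
Psmb2, chr5:144254960-144255019 (+): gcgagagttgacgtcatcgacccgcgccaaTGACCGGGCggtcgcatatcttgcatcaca
Psmb5, chr15:32047410-32047469 (-): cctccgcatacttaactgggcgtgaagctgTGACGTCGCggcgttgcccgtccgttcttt
Psmb6, chr10:55737828-55737887 (+): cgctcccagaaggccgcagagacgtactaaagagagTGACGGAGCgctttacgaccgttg
Psmd9, chr12:39018359-39018418 (-): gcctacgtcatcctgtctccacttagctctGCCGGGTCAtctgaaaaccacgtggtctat
Psmd9, chr12:39018312-39018371 (-): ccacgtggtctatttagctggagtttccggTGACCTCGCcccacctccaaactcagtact
The matches begin 12, 68, 60, 24, 124 and 77 bases before the start, in that order. Of the 5 genes shown, Psma3 and Psmb6 rose, Psmb2 and Psmb5 were not called and Psmd9 fell. Among these 5 a match did not go with one direction. A match is a run of letters and not a measured binding site.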

How the data were processed

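Liver RNA was hybridised to Agilent 4x44K rat arrays. The scanner files the authors deposited hold spot intensity, background-subtracted per the file headers. The headers name Feature Extraction 11.5.1.1 and the submitters' processing notes name 15.5. The authors also deposited a table of log2 values. Its columns rank spots as the median intensity of the same array does (rho of 1), with column medians of 8.5925 to 8.5941, and how it was made is not stated in the labels or headers.

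Outlier-flagged and control spots were left out, spots of a probe averaged, and each array's 75th percentile of log2 processed signal subtracted, over the 6229 probes well above background on all 10 arrays, since at most 46.6% of spots were on any array. No spot was saturated (0 spots). A probe was kept when above background on at least 5 of 10 arrays, and a gene was represented by its brightest passing probe. Probes were named through the accession of the array design matched to RefSeq genes of GRCr8: 17502 had 1 symbol, 0 several and 23510 none. RefSeq lists 48 pseudogenes of these genes, for 19 members, among them Psmb3, Psma6 and Psme3. Probe sequences were not examined, so single genes with such copies are uncertain.

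Groups were compared in R 4.3.3 with limma 3.58.1 (lmFit, then eBayes, on all 10 arrays, no covariate, two-sided, Benjamini-Hochberg adjustment over 6849 genes, threshold 0.05). The fitting step was tested on simulated data with changes balanced in direction and no difference in brightness between groups. That test does not bear on the choice of scaling or filter. The labels number replicates, which were taken as separate rats, so the p-values measure the spread between them, and the number of arrays limits the precision. The files give the slides, each scanned once: slide 1 held control replicates 1 and 2 with DEN/TAA replicates 1 and 2, slide 2 control replicate 3 with DEN/TAA replicates 3 and 4, and slide 3 control replicates 4 and 5 with DEN/TAA replicate 5. The detection floor of an array is its lowest signal among probes well above background.

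The members and lists were chosen with earlier results of these data known. Every member is named. From the pathway list the 3 called genes of smallest adjusted p in either direction are named, with Nfe2l1, Nfe2l2, Pomp, Adrm1, the immune subunits, Ubb and Sqstm1 whatever their result, and 1 further gene of the rule is not reported here. Alternatives were normexp (offset 50), run on median signals because the files hold no mean signal, quantile normalisation, the percentile over all probes, scaling on 5 spike-in probes, the authors' table, other filters, the mean over probes, slide and replicate blocks, a trended robust prior and leaving out rats. Raising undetected arrays to the floor and leaving out the 2 dimmest control arrays were added after the data were seen.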

Additional observations from a re-analysis of the deposited data

Results flagged for a closer look

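Each member's 5 values in a group were checked for a single rat far from the others, as a gap to the nearest rat above 0.71 of the group's range (Dixon's test). Of 84 groups checked 5 had such a rat, and chance gives about 1 in 20. Psmb5 was at 0.79 in DEN/TAA replicate 5 against 1.46 to 1.66 in the other DEN/TAA rats. Psme1 was at 0.55 in DEN/TAA replicate 5 against 0.92 to 0.98. Psme3ip1 was at -3.63 in DEN/TAA replicate 5 against -3.26 to -3.21, and at -4.31 in control replicate 5 against -3.83 to -3.70. Psmc3ip was at -6.81 in control replicate 2 against -5.85 to -5.66, where it was not above background on any control array.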

How the results depend on the processing

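Of 960 differences of single members under alternatives, 835 kept their direction and their side of the threshold, 65 lost the call, 36 gained one and 24 turned in direction. The cause of the differences between scalings was not tested. With normexp 12 members rose, 15 pathway genes rose and 12 fell, 880 of all genes rose and 1947 fell, and the medians were 0.22 for the 19S regulator and -0.28 for all genes. With the percentile over all probes 3 members rose and 2 fell (Psmd9 and Psmc3), 0 core and 2 regulator genes rose, 13 pathway genes rose and 9 fell, 1613 of all genes rose, and the medians were 0.12, 0.05 and 0.02 for core, regulator and all genes. With spike-in scaling 37 members rose and 0 fell, 13 core and 14 regulator genes rose, 55 pathway genes rose and 0 fell, 4438 of all genes rose and 396 fell, and these medians were 1.09, 1.02 and 0.99. After quantile normalisation 8 pathway genes fell, the median of all genes was 0.17 and the alpha ring median exceeded the beta ring's by 0.42. With the values of the authors' table, 8 pathway genes fell, and the medians were 0.33, 0.25 and 0.08.

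Without a filter 2 members (Psmd9 and Psma8) and 8 pathway genes fell, 5801 of all genes fell, and the median of all genes was -0.50, rises making up 30.9% of calls. With the filter on all 10 arrays, which left 3568 genes and 36 members, 1154 of all genes rose (55.0% of calls), and the medians were 0.27 for the regulator and 0.10 for all genes. With undetected arrays at the floor 18 members rose and the median of all genes was 0.11. Of the called genes, these changed sign: Psmc3ip (-0.80 with normexp, -0.26 at the floor), Psme3ip1 (-0.34) and Psmg2 (-0.45) with normexp, and Syvn1 (0.01) with spike-in scaling. Among genes not called in the main setting, the percentile over all probes turned Psmb2 (-0.04), Psmb3 (-0.13), Psmb4 (-0.21), Psmb5 (-0.03), Psmc1 (-0.03), Psmc6 (-0.04), Psmd1 (-0.20), Psmd2 (-0.11), Psmd4 (-0.16), Psmd8 (-0.24), Psmd10 (-0.18), Psmb8 (-0.21), Psmb9 (-0.13), Pomp (-0.15) and Sqstm1 (-0.03). Spike-in scaling turned Psmb7 (0.36), Psmc3 (0.50), Psmd3 (0.45), Psmf1 (0.53) and Ubb (0.39). Psmd10 was also negative with normexp (-0.23), quantile normalisation (-0.15) and the authors' table (-0.14), Psmd8 with quantile normalisation (-0.01), Psmd1 without control replicate 1 (-0.02, in a range of -0.02 to 0.18 over rats left out) and Psmb8 without control replicate 2 (-0.04, in a range of -0.04 to 0.24). Ubb was positive with normexp (0.14), quantile normalisation (0.46) and the authors' table (0.50).

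Leaving out 1 rat in turn left 18 to 22 members rising and 1 falling, core medians of 0.39 to 0.49, regulator medians of 0.31 to 0.40 and an alpha minus beta difference of 0.28 to 0.38. With the replicate block 22 members rose and 1 fell. Same-numbered rats correlated at 0.09, 0.10, 0.20, -0.22 and 0.11, and 3 of 5 correlated best with their own number, so the numbers were not taken to pair the rats. Dim genes such as Psmg2, Psmc3ip and Psmd13 are limited by signal over background in control.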
